A study of Drosophila melanogaster with 3 samples.

Results

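The vacuolar ATPase (V-ATPase) subunit genes of Drosophila melanogaster were taken as the protein-coding genes of the dm6 gene models whose symbol begins Vha, which gave 33 genes of 13945. Binding of the circadian activator Cycle at these genes was read from chromatin immunoprecipitation followed by sequencing (ChIP-seq). Chromatin came from whole white prepupae, animals that have just formed the puparium, of the strain cyc-GFP, in which a transgene adds GFP to the C terminus of Cycle. Both sexes were pooled, the age is given as unknown, and the antibody was directed against GFP. The 3 biological replicates form 1 group with a single genotype and stage, so there is no untagged or untreated group among the samples. The labels do not say whether the animals also carried untagged Cycle. The whole organism mixes all tissues, and a site occupied in few cells cannot be told apart from a weakly occupied one.

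The V-ATPase pumps protons into lysosomes, endosomes and secretory vesicles, and across the plasma membrane of some epithelia. Its soluble V1 domain hydrolyses ATP and drives a rotor, and its membrane domain Vo carries the protons. Most subunits have 1 widely used gene in the fly, and several have further copies that are expressed in few tissues, the testis among them. In flies and mammals, lysosomal genes including V-ATPase genes are known targets of the bHLH-zipper factor Mitf, or its relatives such as TFEB, which reads an E-box with the same core, CACGTG, as the pair of Clock and Cycle.

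The members were sorted from such background knowledge, not from expression in these animals. The broad set holds 13 genes, 1 for each subunit, the paralogue set holds 18 further copies, and 2 genes encode accessory proteins. A gene was called when a summit of the thresholded peak list lay within 1 kb of any of its transcript starts. The list was made by the authors with the irreproducible discovery rate from the 3 replicates, and holds 7227 peaks. Each peak carries a signal, the authors' value relative to a control alignment. The thresholded peaks had signals between 110.3 and 5704.7, and their median was 211.9. The read depth behind each value is unknown, because the lists hold no counts.

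Of the 33 Vha genes, 13 were called, or 39.4% (exact binomial 95% interval 22.9 to 57.9%), against 28.6% of all protein-coding genes. The interval includes the background. Within the family, 9 of the 13 broad-set genes were called, or 69.2% (38.6 to 90.9%), and 4 of the 18 paralogues, or 22.2% (6.41 to 47.6%). The interval of the broad set lay above the background and that of the paralogues included it. By domain, 7 of 13 V1 genes and 6 of 18 Vo genes were called. Both accessory genes, VhaAC45 and VhaAC45RP, were uncalled. The intervals cover counting error only and treat genes as independent.

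**Figure D1:**
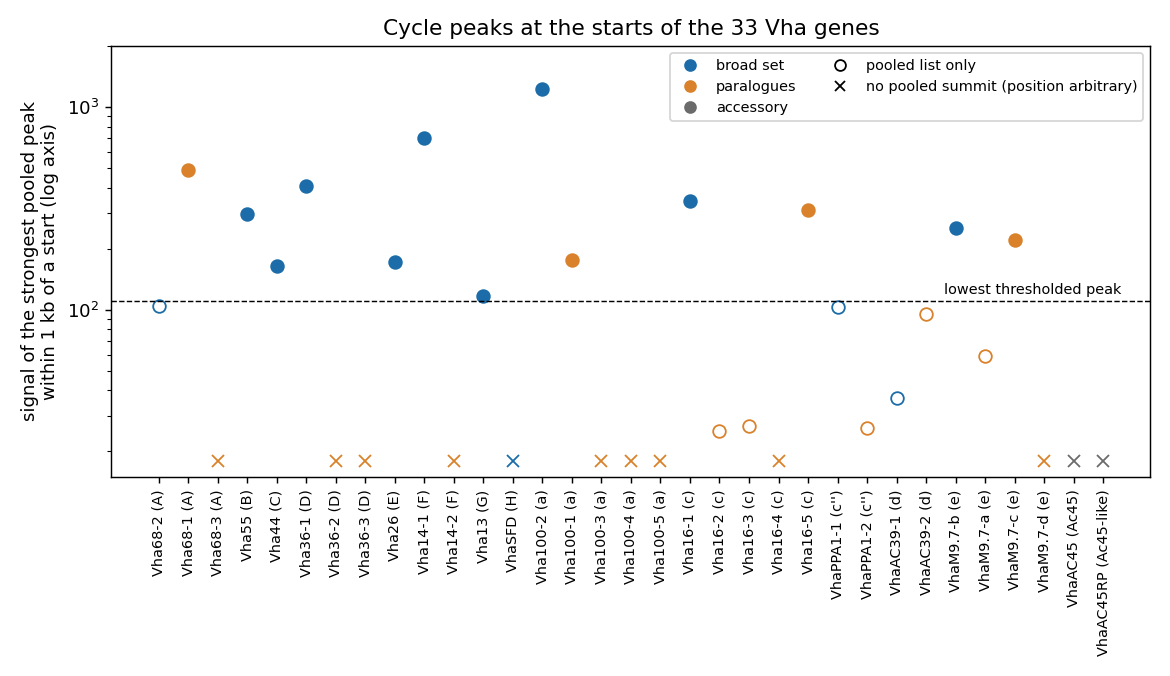
Signal of the strongest pooled peak within 1 kb of a start (log axis) for each of the 33 Vha genes, with the subunit letter in brackets. Filled points are called genes, open points have a pooled summit below the lowest thresholded signal of 110.3 (dashed line), and crosses mark genes with no pooled summit. Of the 13 filled points, 9 belong to the broad set.

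The pooled list of 29484 peaks adds weaker peaks to the thresholded ones, so every called gene recurs in it. The order of the sets was the same, but it is not independent of the calls. In the broad set the pooled list added Vha68-2, VhaAC39-1 and VhaPPA1-1. Among the paralogues it added Vha16-2, Vha16-3, VhaAC39-2, VhaM9.7-a and VhaPPA1-2. A pooled summit lay within 1 kb of a start of 12 of 13 broad-set genes and of 9 of 18 paralogues, 21 of 33 members in all, against 55.4% of all genes. A summit was present in each of the 3 replicate lists, taken one by one, for 12 members, against 32.5% of all genes. These 12 were 9 broad-set genes and 3 paralogues. In 8 members no list held a summit within 1 kb: the paralogues Vha36-2, Vha36-3, Vha14-2, Vha100-3, Vha100-4, Vha100-5 and Vha16-4, and the accessory gene VhaAC45RP. These 8 were 24.2% of the members, close to the 24.7% of all protein-coding genes without a summit in any list. By set they were 7 of 18 paralogues (17.3 to 64.3%) and 0 of 13 broad-set genes (0 to 24.7%), and both intervals reached the background.

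The called Vha genes lay mostly beside another gene. A start of a different protein-coding gene lay within 1 kb of the starts of 15 members, and 11 of these 15 were called, against 43.4% of all genes with such a neighbour. Of the 18 members without one, 2 were called, Vha16-1 and VhaM9.7-c, against 17.4% of all such genes. In the broad set all 8 genes with a neighbour were called and 1 of the 5 without, and among the paralogues 3 of 6 with and 1 of 12 without. Neighbours were also more common in the broad set, 8 of 13 genes, than among the paralogues, 6 of 18, and in 42.9% of all protein-coding genes. Having a neighbour thus went with both the set and the call, and its part in the difference between the sets was not tested. The number of starts differed too: among the 25 members with 1 start 8 were called (5 of 8 broad-set genes and 3 of 15 paralogues), against 22.3% of all such genes, and of the 8 members with several starts 5 were called, against 46.0%.

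**Figure D2:**
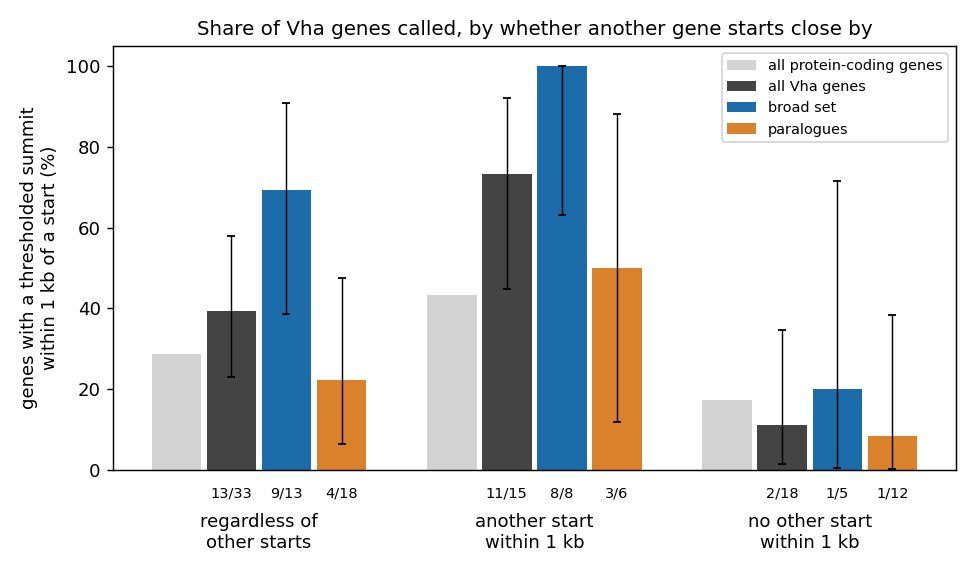
Share of genes called, for all protein-coding genes, all Vha genes, the broad set and the paralogues, regardless of other starts and split by whether another gene starts within 1 kb. Bars start at 0, error bars on the Vha bars are exact binomial 95% intervals, and their counts stand underneath. With a neighbouring start 11 of 15 members were called, and without one 2 of 18.

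Most of these peaks were thus shared. In 11 of the 13 called members the strongest summit also lay within 1 kb of a start of another gene, as it did in 60.7% of all 3984 called genes. The other gene lay on the opposite strand in 10 of the 11. For 7 of the 13 the other gene's start was the closer one, and for 6 the Vha start was. These 6 include Vha16-1 and VhaM9.7-c, whose summits had no other start within 1 kb. When each summit was given only to the gene with the nearest start, 6 Vha genes were called, or 18.2%, against 21.2% of all genes. They were Vha13, Vha16-1, Vha36-1, Vha55, Vha68-1 and VhaM9.7-c, of which 4 belong to the broad set. Under this assignment the share of the whole family was below the background, and its interval (6.98 to 35.5%) included it. For the broad set the share was 30.8% (9.09 to 61.4%), so its interval also included the background and the excess seen with shared summits was no longer resolved. For the paralogues it was 11.1% (1.38 to 34.7%).

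**Figure D3:**
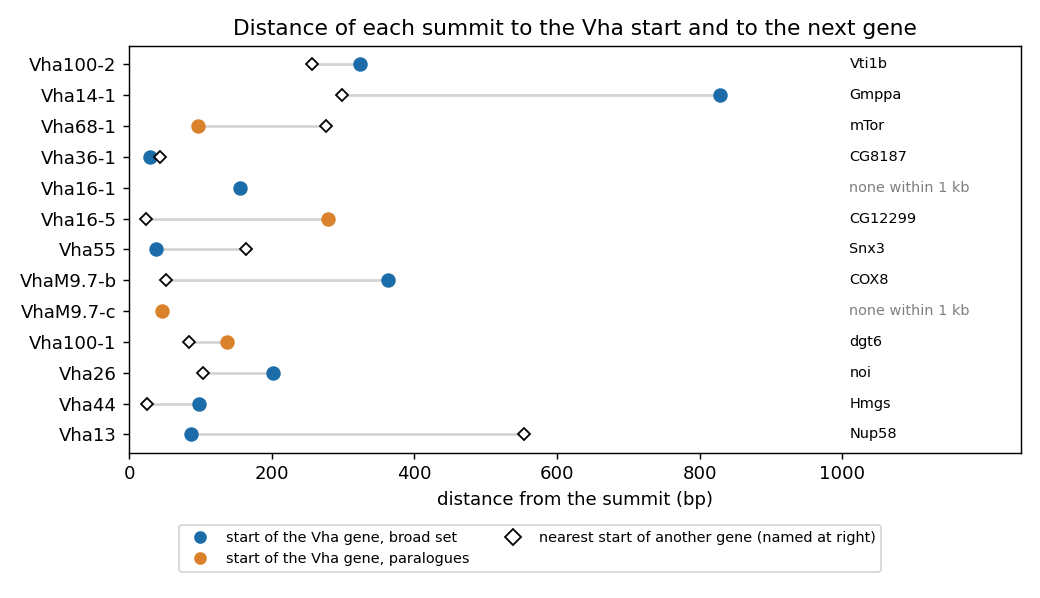
Distance in bp from the strongest thresholded summit of each called member to the nearest start of that Vha gene (circles) and to the nearest start of another gene within 1 kb (diamonds, named at right), in order of signal. For 7 of 13 genes the diamond lies closer to the summit than the circle.

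In the following, relative signal is the signal of the overlapping peak in a replicate, divided by the median over the thresholded peaks found in that replicate. A value of 1 is thus a typical thresholded peak. The strongest Vha peak belonged to the a subunit of Vo, the large membrane subunit that helps to form the proton path. Vha100-2 (3R, 18390323 to 18399169), its broad-set gene, had a signal of 1231, which ranked 147 in the list. Its relative signals were 6.44, 6.15 and 4.64 in replicates 1, 2 and 3, a mean of 5.74 ± 0.966 (SD, n = 3). All 3 were above the values of every other Vha gene. The summit lay 323 bp upstream of an inner start of Vha100-2, inside a UTR exon of Vti1b, a SNARE gene whose start was 256 bp away. Counting only the outermost start of each gene left Vha100-2 uncalled.

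The a subunit has 4 further genes, and 1 of them was called. Vha100-1 (3R, 29131193 to 29137980), which acts in neurons, had a summit 137 bp upstream, and 84 bp from a start of the augmin subunit gene dgt6. Its signal of 175.5 was below the median of the list. It had no peak in replicate 1, and relative signals of 0.632 and 0.801 in replicates 2 and 3. Vha100-4 lies next to Vha100-2, with 517 bp between the genes, but its start was 7446 bp from the nearest thresholded summit, the one of Vha100-2. Vha100-3 and Vha100-5 had their nearest thresholded summits 10072 and 70582 bp away.

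The A subunit of V1, which holds the catalytic ATP sites, went against the order of the sets. Its broad-set gene Vha68-2 (2L, 12974322 to 12978607) was uncalled, and its copy Vha68-1 (2L, 13000770 to 13004107) was called. Vha68-1 had a signal of 486.5, 97 bp upstream of its start, with relative signals of 2.97, 2.00 and 1.77, a mean of 2.25 ± 0.632 (SD, n = 3). The same summit lay 276 bp from a start of mTor, on the opposite strand, which encodes the growth kinase that works at the lysosome surface together with the V-ATPase. Vha68-2 had a pooled summit 125 bp upstream with a signal of 104.04, just under the lowest thresholded value. The weakest called member, Vha13, was just above it with 116.3. The relative signals of Vha68-2 were 0.237, 0.845 and 0.405, below those of Vha68-1 in each replicate. Vha68-3, which starts 178 bp beyond the end of Vha68-2, had no pooled summit and a single weak peak in replicate 3, ranked 25035.

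The B subunit, which completes the catalytic ring, has 1 gene, Vha55 (3R, 12623762 to 12627829). Its summit lay 38 bp upstream of a start, and 164 bp from a start of Snx3, a sorting nexin gene. The signal was 297.4, and the relative signals of 1.77, 1.29 and 0.948 gave a mean of 1.33 ± 0.411 (SD, n = 3).

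The stalk subunits of V1 differed widely. Vha14-1 (F subunit, on the central stalk) had the second strongest Vha signal, 706.4, with relative signals of 3.60, 3.38 and 3.01. They lay close together, with a mean of 3.33 ± 0.295 (SD, n = 3). Its summit was 829 bp downstream of the Vha14-1 start, past the end of that gene, and 299 bp from a start of Gmppa. Vha14-1 was the only called member whose strongest summit lay downstream of its nearest start, and the only one lost with a window of 500 bp. Its copy Vha14-2 had no summit in any list.

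Vha36-1 (D subunit, the shaft of the rotor) had a signal of 405.2 with the summit 29 bp upstream, and 43 bp from a start of CG8187. The relative signals were 1.56, 2.31 and 1.67, a mean of 1.85 ± 0.403 (SD, n = 3). The copies Vha36-2 and Vha36-3 had no summit in any list, the nearest thresholded ones being 15816 and 1734 bp away. Among the peripheral stalks, which hold the catalytic ring still, Vha26 (E subunit) had a signal of 171.8, 201 bp upstream and 103 bp from a start of the splicing factor gene noi. It had no peak in replicate 1, and relative signals of 1.09 and 0.658 in replicates 2 and 3. Vha13 (G subunit) had the weakest thresholded peak of the family, with a signal of 116.3, 87 bp upstream of its start. Its relative signals were 0.703, 0.720 and 0.406, a mean of 0.610 ± 0.177 (SD, n = 3), all below 1.

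The regulatory subunits C and H, which take part in joining V1 to Vo, differed in their calls. Vha44 (C subunit) had a signal of 163.6 with the summit 98 bp upstream, in a UTR exon of Hmgs, the HMG-CoA synthase gene, and 25 bp from a start of it. The relative signals of 0.609, 0.922 and 0.617 gave a mean of 0.716 ± 0.178 (SD, n = 3). VhaSFD (H subunit) was the only broad-set gene with no pooled summit within 1 kb, the nearest being 5092 bp away. Replicates 2 and 3 nonetheless held peaks there that ranked 6700 and 4802, and replicate 1 held none. Of all protein-coding genes, 92 likewise had no pooled summit but a summit among the 7227 strongest peaks of at least 2 replicates.

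The c subunits form the proton-carrying ring of Vo. Vha16-1, the broad-set gene, had a signal of 344.5 with its summit 155 bp upstream and no other start within 1 kb. Its relative signals were 1.88, 1.46 and 1.28, a mean of 1.54 ± 0.310 (SD, n = 3), all above 1. It also held a weaker thresholded summit in its own intron, 1667 bp downstream of the nearest start, with a signal of 191.4 and relative signals of 0.757, 0.877 and 0.782. Of the other c genes, Vha16-5 (2L, 10736319 to 10737043) was called, with a signal of 309.1, 278 bp upstream and 24 bp from a start of CG12299. Its relative signals of 1.38, 1.52 and 1.32 overlapped those of Vha16-1, and the mean was 1.41 ± 0.0994 (SD, n = 3). A second thresholded summit lay 877 bp downstream of its start, with a signal of 122.7. Vha16-2 and Vha16-3, neighbours on 3L, had pooled signals of only 25.2 and 26.5, near the bottom of the pooled list, and Vha16-4 had none.

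The genes of the c'' and d subunits of Vo were all uncalled. VhaPPA1-1, for the c'' subunit of the ring, had a pooled summit 139 bp upstream with a signal of 103.6, under the threshold. It had no peak in replicate 1, and relative signals of 0.593 and 0.488 in replicates 2 and 3. Its neighbour and copy VhaPPA1-2 had a pooled signal of 26.2, at a summit in a coding exon of RpS5b. For the d subunit, which couples the ring to the V1 rotor, the broad-set gene was the weaker one. VhaAC39-1 had a pooled signal of 36.8 and VhaAC39-2 one of 95.4, with relative signals of 0.186 and 0.277 against 0.234 and 0.716 in replicates 2 and 3. Neither had a peak in replicate 1.

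The small e subunit has 4 genes, of which 2 were called. VhaM9.7-b (3L, 21539862 to 21541215), the broad-set gene, had a signal of 252.3, 363 bp upstream and 52 bp from a start of COX8, which encodes a subunit of cytochrome c oxidase. Its relative signals were 1.48, 0.835 and 1.13, a mean of 1.15 ± 0.325 (SD, n = 3). VhaM9.7-c (3L, 4186018 to 4186865) had a signal of 221.7 at a summit 46 bp upstream, in introns of CG18675 and Teh2 and with no other start within 1 kb. Its relative signals of 0.546, 1.18 and 1.23 overlapped those of VhaM9.7-b, with a mean of 0.983 ± 0.379 (SD, n = 3). VhaM9.7-a had a pooled signal of 59.4, 62 bp upstream, and VhaM9.7-d had a single weak peak, in replicate 1.

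**Figure D4:**
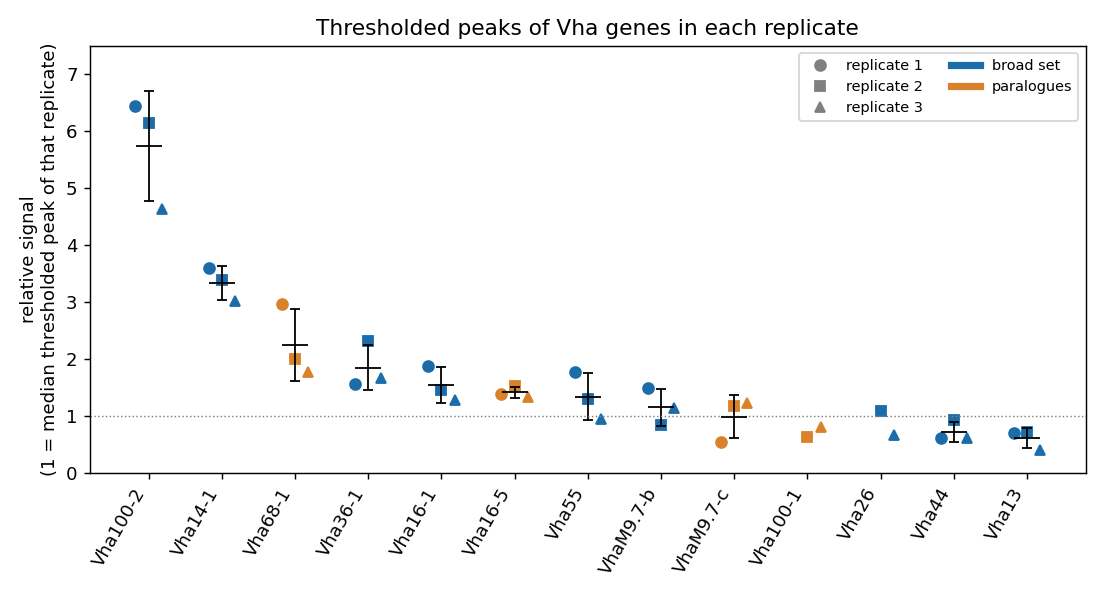
Relative signal in each replicate for the 13 called members, in order of signal, where 1 (dotted line) is the median thresholded peak of that replicate. Symbols are replicates, colours are sets, and black bars are the mean ± SD of genes with a peak in all 3 replicates. Vha100-2 lies above all others in each replicate, and Vha26 and Vha100-1 have no point for replicate 1.

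The called members had signals from 116.3 to 1231, within the range of 110.3 to 5704.7 of all called genes. Their median signal was 297.4, against 248.6 over all 3984 called genes. Of the 13, 9 were above the list median of 211.9, which the median of all called genes also exceeded. The summit lay upstream of the nearest start in 12 of 13 members, against 83.7% of all called genes, and within 250 bp upstream in 9 of 13, against 55.9%. A peak was found in all 3 replicates for 11 of the 13, and for 90.1% of all thresholded peaks. Their coefficient of variation over replicates ran from 7.05 to 38.6% with a median of 24.9%, against a median of 22.9% over all thresholded peaks found in all 3. Replicate 1 had a summit near the starts of 14 members, and replicates 2 and 3 of 21 each. It also had fewer over all protein-coding genes, 46.1% against 58.9 and 58.1%. All 13 broad-set genes had a summit in the lists of replicates 2 and 3, and 9 of them in that of replicate 1.

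The next question was whether these promoters hold the E-box. Promoters were taken from 250 bases before to 50 bases from each start, and searched on both strands. The motifs searched overlap: the longest E-box form holds the shorter ones, and every CACGTG is also counted as a general E-box. CACGTG occurred in the promoters of 5 of 33 Vha genes, or 15.2%, against 5.30% of all genes. The difference rests on 5 genes and was not tested. The 5 were Vha44, Vha55, Vha68-2, VhaM9.7-d and VhaAC45RP, of which the first pair were called. Among called genes, CACGTG was in the promoters of 2 of 13 members, against 6.65% of all called genes. The longer form TCACGTGA, which adds the flanking bases that Mitf and its relatives prefer, occurred in 28 of 13945 genes, or 0.201%, and 2 of the 28 were Vha genes, Vha44 and Vha68-2. Vha44 and its neighbour Hmgs share a single match and are both among the 28. Vha68-2 has 5 starts, the most of any member, and its match lies 96 bp upstream of an inner one.

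Few summits lay at a CACGTG. It was within 100 bp of the summits of Vha44 and Vha55, 2 of 13 called members, against 1.63% of all thresholded summits. The former counts genes and the latter all summits, also those away from gene starts. The match was 54 bp from the summit at Vha44 and 96 bp at Vha55. Vha100-2, Vha14-1 and Vha68-1, which had the 3 highest signals, held no CACGTG in their promoters or within 100 bp of the summit.

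Sites of 4 of these 5 genes are shown so that the bases around the core can be compared. Each is 30 bases of the Release 6 genome in the direction of the Vha gene, with the E-box in capitals.
Vha68-2, chr2L:12975292-12975321, plus strand: tcaaagctctgtCACGTGaaacgaaagctc
Vha55, chr3R:12627756-12627785, minus strand: gtcatgtgacggCACGTGacgtcacagcag
VhaM9.7-d, chr3R:16975215-16975244, plus strand: gaaatggataagCACGTGgcattcatggtc
VhaAC45RP, chr3R:30166575-30166604, minus strand: ccgttacagaaaCACGTGgcactcgaattg
Of these 4 sites, the one at Vha68-2 matches TCACGTGA and the others do not. The site at Vha44, which is not shown, also matches TCACGTGA.

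The sequence at the summits themselves is shown for 4 called members whose summits lie outside exons, a pair from the broad set (Vha55 and VhaM9.7-b) and a pair of paralogues (Vha68-1 and VhaM9.7-c). Each is the stretch outside exons within 60 bases of the summit, in the direction of the Vha gene. Capitals mark any E-box of the form CANNTG and the shorter ACGTG or its reverse complement. ACGTG is a half-site shared by bHLH-PAS partners, and it also lies inside CACGTG.
Vha68-1, chr2L:13004144-13004264, minus strand: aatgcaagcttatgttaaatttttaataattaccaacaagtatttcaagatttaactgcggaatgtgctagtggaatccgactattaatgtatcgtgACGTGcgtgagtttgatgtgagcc
Vha55, chr3R:12627830-12627927, minus strand: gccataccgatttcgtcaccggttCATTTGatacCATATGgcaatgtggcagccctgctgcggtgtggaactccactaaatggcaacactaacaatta
VhaM9.7-b, chr3L:21539448-21539559, plus strand: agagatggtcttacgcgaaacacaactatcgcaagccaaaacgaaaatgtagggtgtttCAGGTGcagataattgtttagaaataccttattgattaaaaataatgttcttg
VhaM9.7-c, chr3L:4186866-4186971, minus strand: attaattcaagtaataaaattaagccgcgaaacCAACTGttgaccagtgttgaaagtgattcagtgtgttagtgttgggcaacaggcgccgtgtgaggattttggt
Like stretches at Vha26, Vha100-1 and Vha16-5, not shown, also held a match, and the one at Vha13 held none. Such loose matches are common. CANNTG lay within 100 bp of a thresholded summit in 12 of 13 called members and at 59.8% of all thresholded summits, and ACGTG in 4 of 13 and at 12.3%. The member values count genes over any of their thresholded summits. The others count summits, also those away from gene starts, so the units differ.

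Other promoter sequences showed no single pattern in the family. GGTCACAC, the site of the core promoter factor M1BP, was in the promoters of 5 members, against 8.71% of all genes. Of these, Vha14-1, Vha16-1, Vha26 and Vha100-1 were called and Vha68-2 was not. GGTCACAC was thus in the promoters of 4 of 13 called members, against 13.1% of all called genes, a difference that was not tested. At Vha26 and Vha100-1 it lay 2 bp from the start. TATCGATA, read by DREF and BEAF-32, was in 2 members, Vha55 and VhaSFD, against 10.2% of all genes. GAGAGA, the site of GAGA factor, was in 5, against 17.1%. None of these 3 motifs lay within 100 bp of the 14 thresholded summits of members. All were also uncommon over all thresholded summits, where GGTCACAC lay at 1.96%, TATCGATA at 3.32% and GAGAGA at 9.66%. GTGCAC was in no Vha promoter, against 7.56% of all genes, and lay at the summit of Vha16-5 only. The composition control AAAAAA was in 20 of 33 member promoters and 56.3% of all genes.

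A companion list held 32 other genes that work with the V-ATPase at the lysosome, and all were found in the gene models. Of these 14 were called, or 43.8% (26.4 to 62.3%), and the interval included the 28.6% of all genes given above. The 14 include mTor, called through the peak already counted for Vha68-1. The strongest peak was that of Lamtor3, a subunit of the Ragulator complex that ties growth signalling to the lysosome, with a signal of 921.9 and a relative signal of 4.12 ± 1.15 (SD, n = 3). Sap-r, the saposin precursor gene, followed with 641.1, at a summit 919 bp downstream of its nearest start, and mTor with 486.5. The others among the 10 strongest were the cathepsin genes CtsF (287.8), CtsL1 (230.5) and CtsB (222.8), the vesicle tethering gene car (242.1), and the lysosomal enzyme genes Ppt1 (228.1) and Hexo1 (199.1), each value a signal. The tenth was RagA-B, a Rag GTPase gene, with a signal of 192.0. The CtsF summit lay 665 bp downstream of its nearest start, and CtsL1 and Ppt1 had no peak in replicate 1. ATP6AP2, an accessory protein of the V-ATPase whose symbol does not begin Vha, had a signal of 167.5, 62 bp upstream, with no peak in replicate 1. Mitf itself and the assembly factor genes Rbcn-3A and Rbcn-3B were uncalled, although each had a pooled summit. None of the 32 companion genes held CACGTG in a promoter. It was in 5.30% of all genes, so a list of 32 is too short to show an absence.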

How the data were processed

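ChIP-seq peak lists of 3 replicates of 1 group were used, with genes named by Ensembl release 115 (build 6.54) on the 6 chromosome arms and sequence from the Release 6 genome. Per the deposited texts, the files are narrowPeak lists on dm6. There is a list for each replicate, a pooled list was made from all 3, and the thresholded list derives from these. The signal in them is the authors' value against a control alignment, and the summit is the deposited offset. Aligner and peak caller: not given in the sources used here. Lists on dm3 were not used here. All thresholded peaks are also in the pooled list, and no peak ran past the end of an arm.

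From these, summits were assigned to all transcript starts within 1 kb, so that a summit can count for several genes. Replicate peaks were matched by an overlap of at least 1 bp, nearest by summit. Starts were 19607 in all. No test between groups was possible, and no list test was made: counts are given beside those of all protein-coding genes, with exact binomial (Clopper-Pearson) intervals. Every member is named, and of the companion list up to 10 called genes by signal; ATP6AP2, Mitf, Rbcn-3A and Rbcn-3B were added after their values were seen. The members and lists were chosen with earlier results of these data known. The assignment was tested on simulated data. Computation used Python 3.11.15, numpy 2.4.6, pandas 2.3.3, scipy 1.17.1 and matplotlib 3.10.9.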

Additional observations from a re-analysis of the deposited data

How the results depend on the processing

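The counts called were 13 Vha genes, 9 of the broad set and 4 paralogues. Giving each summit only to its nearest gene left 6 Vha genes, 4 of the broad set and 2 paralogues, and the interval of the broad set then included the background. With the pooled list there were 21 Vha genes and 9 paralogues, and with a window of 5 kb there were 7 paralogues, each against a higher background (55.4% and 50.8% of all genes). Counting Vha68-1 and Vha100-1 in the broad set gave 11 of 15 broad-set genes called, or 73.3%. It left 2 of 16 paralogues called, or 12.5%. CACGTG was in the promoters of 5 members, and within 100 bp of a summit of 2. Leaving out each replicate in turn gave 10 to 12 Vha genes, 7 to 8 of the broad set and 3 to 4 paralogues, with Vha13, Vha26 and Vha100-1 the genes lost. Without replicates 1, 2 and 3 the family share was 36.4, 30.3 and 33.3%, against 24.2, 19.9 and 20.0% of all genes. The stronger 3613 thresholded peaks, a 500 bp window, gene bodies and outermost starts kept every count within 1.5 times. In that order the family share was 27.3, 36.4, 39.4 and 36.4%, against 16.8, 24.8, 32.4 and 26.5% of all genes. With the stronger peaks the paralogues stood at 16.7%. No paired analysis was possible because the samples form 1 group. Read depth is unknown, so no value could be given for what depth limits.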
